A study of Mus musculus with 2 samples.

Results

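The lining layer of a synovial joint is built partly of fibroblasts that secrete lubricin, the product of Prg4. Cells with that gene and its companions were taken from both deposited single-cell tables by a fixed rule, namely Col2a1 at 0 and at least 3 of the 6 genes Prg4, Clic5, Htra4, Tmem196, Sema3a and Aldh1a3 above 0. The rule found 276 of 6243 cells, 223 of 4903 in the control library and 53 of 1340 in the mutant library, and they are called lining-marker cells here. Because the members were chosen by the measured values of those 6 genes and Col2a1, those levels are given as a description only. The tables came from knee joints of female mice aged 1 month, dissociated enzymatically and sorted for live cells without the blood and endothelial surface markers CD45, Ter119 and CD31. Each genotype was 1 library of cells pooled from several mice. Control mice carried 2 floxed Stat3 alleles and no Cre (Stat3fl/fl), and mutant mice carried the same alleles with a Cre driven by the aggrecan promoter (Acan-Cre+/Cre;Stat3fl/fl in the sample names; in the study's methods a tamoxifen-dependent Cre, induced at postnatal days 2 and 3). Aggrecan is a cartilage gene, so the deletion was aimed at chondrocytes. With 1 library per genotype there was no replicate check, so no p-value is given and every difference between genotypes is a difference between 2 libraries.

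Synovial fibroblasts of the lining form a thin sheet with tissue macrophages at the surface facing the joint cavity. They make lubricin and hyaluronan, which keep cartilage surfaces sliding, whereas the fibroblasts beneath them, and the universal-type fibroblasts marked by Pi16 and Dpp4 that many tissues share, are known for collagen, vessels and immune signals. Interleukin-6 family cytokines act on such cells through the shared receptor gp130 (Il6st) and the transcription factor Stat3.

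The marker genes lie apart in the genome. In the GENCODE M21 annotation of mouse build GRCm38, Prg4 spans bases 150449412 to 150466165 of chromosome 1, minus strand, and Clic5, a gene for an intracellular chloride channel protein that links membranes to the actin skeleton, spans bases 44188584 to 44280172 of chromosome 17, plus strand. RefSeq promoters (build GRCm38.p6) were at hand for 7 of the 12 genes looked up, which chose the cells or stood out in them. The 250 bases before the RefSeq start are shown for Clic5, which ranked first against all other cells, and for Tspan15 and Fgl2. Tspan15 and Fgl2 were the genes of those 7 in whose window a site for AP-1, the dimer of Fos and Jun proteins, was found. Capitals mark the AP-1 letters TGANTCA, searched on both strands.

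Clic5, chr17:44188322-44188571, plus strand: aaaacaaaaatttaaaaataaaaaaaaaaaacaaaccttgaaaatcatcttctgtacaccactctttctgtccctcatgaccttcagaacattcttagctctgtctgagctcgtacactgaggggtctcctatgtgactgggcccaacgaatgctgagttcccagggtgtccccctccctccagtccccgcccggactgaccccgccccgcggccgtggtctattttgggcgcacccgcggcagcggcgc
Tspan15, chr10:62231219-62231468, minus strand: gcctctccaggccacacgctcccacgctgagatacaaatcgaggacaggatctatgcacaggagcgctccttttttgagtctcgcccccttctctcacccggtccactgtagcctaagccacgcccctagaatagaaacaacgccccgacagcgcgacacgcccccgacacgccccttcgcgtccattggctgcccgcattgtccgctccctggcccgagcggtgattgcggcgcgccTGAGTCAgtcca
Fgl2, chr5:21372423-21372672, plus strand: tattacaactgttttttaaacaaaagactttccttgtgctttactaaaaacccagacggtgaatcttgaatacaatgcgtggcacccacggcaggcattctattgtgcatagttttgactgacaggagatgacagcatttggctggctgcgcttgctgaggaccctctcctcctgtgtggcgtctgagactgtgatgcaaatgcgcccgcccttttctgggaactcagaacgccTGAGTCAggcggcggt

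The AP-1 letters began 12 bases before the RefSeq start of Tspan15 and 16 bases before that of Fgl2. Of all 32851 promoter windows of the same length in the RefSeq set 6.75% held them. In GENCODE M21 Tspan15 starts at base 62231251 (minus strand) and Fgl2 at base 21372642 (plus strand). By that annotation the letters lie inside both genes. None of the 7 genes held a TATA box (TATAAA, 12.4% of all windows), a full cyclic AMP response element (TGACGTCA, 1.55%) or the STAT letters TTCCNGGAA (0.913%). These matches describe letters in a window and were not tied to binding.

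The libraries differed in ways that touch the results. Lining-marker cells had a median of 4589 unique molecular identifiers (UMIs, each standing for 1 captured RNA molecule) in control, with a range of 931 to 18741, and 10600 in mutant, with a range of 627 to 18190, whereas the other cells had medians of 4318 and 3600. The summed UMIs were 1156310 in control and 519883 in mutant. Globin RNA, the product of red cells, was above 0 in 126 of 223 control lining-marker cells (56.5%, exact 95% interval 49.7 to 63.1), against 76.7% of the other control cells, and in 0 of 53 mutant ones, which allows up to 6.72%, against 8.78% of the other mutant cells. In universal-type fibroblasts, defined further on, globin was found in 69.0% of the cells from control and in 0 of 89 from mutant, so the difference was not limited to lining-marker cells. The median among control members with any globin was 0.615 UMI, a fractional value, since the deposited values had been corrected for free RNA. Mitochondrial reads had medians of 2.42% in control and 3.35% in mutant members. The libraries shared 2 cell barcodes.

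Lining-marker cells made up 4.55% of control cells (exact 95% interval 3.98 to 5.17) and 3.96% of mutant cells (2.98 to 5.14). These intervals, which cover counting error only, overlapped. Among cells without a globin value the shares were 8.15% in control (97 of 1190 cells, 6.66 to 9.85) and 4.32% in mutant (53 of 1227, 3.25 to 5.61). When every cell was reduced to 2000 UMIs, and the 923 control and 457 mutant cells below that depth were dropped, they were 4.95% (4.30 to 5.67) and 5.21% (3.84 to 6.89). More than 5% mitochondrial reads were found in 694 of 4903 control cells and 492 of 1340 mutant cells. Without such cells the shares were 5.08% in control and 5.54% in mutant. The order of the libraries was thus not the same for every denominator, and the pooling of mice and the sort can also set such shares.

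Most of these cells carried nearly the full marker set. Of the 223 control cells, 162 (72.7%) had 5 or 6 markers, as had 37 of the 53 mutant cells (69.8%). At the limit, in control, 22 cells had 3 markers and 127 cells without Col2a1 had 2, and in mutant 12 had 3 and 31 had 2. The level of Prg4 was 37324 CPM (a gene's UMIs summed over the cells, per 1000000 of all their UMIs) in control cells with 3 markers and 8348 CPM in those with 2. In mutant the same levels were 23727 and 2402 CPM. Genes outside the rule also changed across the limit. F13a1, the catalytic subunit of coagulation factor XIII, stood at 129 CPM with 2 markers and 538 CPM with 3 in control, and at 4.0 and 229 CPM in mutant. With all 6 markers it reached 2283 CPM in control and 1589 CPM in mutant. Among members, median UMIs also differed with marker number, 3820 for 3 and 5670 for 6 in control and 2960 and 13644 in mutant. Outside the rule they were not lower throughout, at 5437 for control cells with 0 markers and 7998 for mutant cells with 2.

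**Figure D1:**
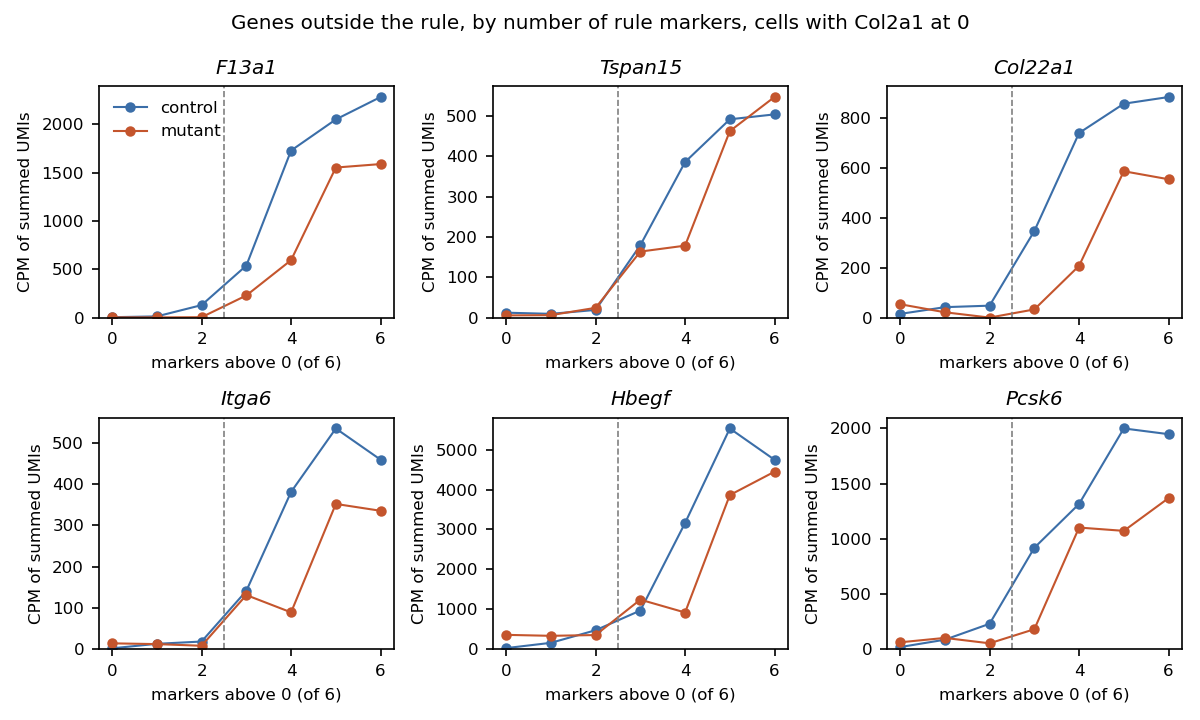
CPM of 6 genes that the rule did not use (vertical axes, from 0) in cells with Col2a1 at 0, by how many of the 6 rule markers were above 0 (horizontal axes), for control (blue) and mutant (orange); each point sums all cells of that kind. The dashed line marks the limit of the rule, and F13a1 rises from 129 to 2283 CPM between 2 and 6 markers in control and from 4.0 to 1589 CPM in mutant.

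Outside the rule on the other side, 27 control and 16 mutant cells had at least 3 markers together with Col2a1. Their Prg4 was 34532 CPM in control and 57616 CPM in mutant, and the 16 genes of the cartilage list summed to 19913 and 6289 CPM. In lining-marker cells the same list summed to 705 and 724 CPM. Acan, which encodes aggrecan, was at 13.5 CPM in control members and 13.8 CPM in mutant ones, against 4190 and 1690 CPM in the cells with both Sox9 and Col2a1.

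Prg4 alone took 11.1% of all UMIs of control members and 8.84% of those of mutant members. The share varied widely from cell to cell. Its quartiles were 5.10% and 15.4% in control, with a median of 10.1% and a highest value of 34.0%, and 3.10% and 10.8% in mutant, with a median of 6.36% and a highest value of 28.9%. The 4.55% of control cells that were members held 83.4% of that library's Prg4 UMIs, and the 3.96% of mutant cells held 73.3%. For Clic5 these portions were 94.3% and 84.6%.

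**Figure D2:**
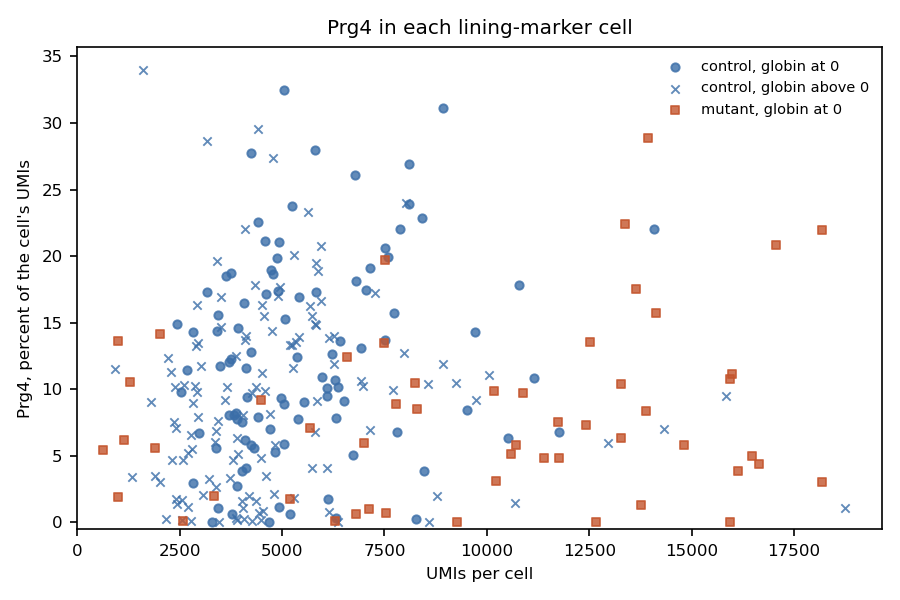
Prg4 as a percent of each lining-marker cell's UMIs (vertical axis) against its UMIs (horizontal axis); circles are control cells with globin at 0, crosses control cells with globin above 0 and squares mutant cells. Medians are 10.1% in control and 6.36% in mutant, and mutant cells reach further to the right, with a median of 10600 UMIs against 4589.

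A small tail had little Prg4. In 20 control and 7 mutant members it was under 1% of UMIs, a limit chosen after the values were seen. Of these, 9 control and 4 mutant cells had just 3 markers. The 20 control cells had Col1a1 at 19159 CPM, against 2255 CPM in the other 203, and F13a1 at 225 CPM against 2108 CPM. The 7 mutant cells had Col1a1 at 4844 CPM against 903 CPM in the other 46, and F13a1 at 147 CPM against 1511 CPM. Col1a1 and Col1a2 encode the chains of type I collagen. S100a4, a calcium-binding protein of fibroblasts, stood at 1129 against 276 CPM in control and 5338 against 980 CPM in mutant. The 3 cells with most Col1a2 held 50.2% of its UMIs in control members and 56.4% in mutant members.

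The other rule genes are described for completeness. Clic5 stood at 3145 CPM in control members and 1826 CPM in mutant ones. Htra4, a secreted serine protease, was at 1076 and 1986 CPM, the rule gene with the largest excess in mutant (log2 ratio 0.88). Sema3a, a secreted guidance cue, was at 698 and 521 CPM, Aldh1a3, an enzyme that makes retinoic acid, at 407 and 282 CPM, and Tmem196, a membrane protein, at 161 and 160 CPM. None of the 6 differed between the libraries by a log2 ratio of 1. After reduction to 2000 UMIs a cell, Clic5 was above 0 in 81.7% of control members and 76.6% of mutant members, against 0.452% and 1.56% of the remaining cells, and Tmem196 in 22.02% and 19.2% against 0.239% in both libraries.

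Against all other cells of the same library, genes were ranked by the smaller of their ratios in the libraries. The 12 highest included F13a1, Tspan15, Pla1a, Calcrl, Rab37 and Fgl2, beside the rule genes Clic5, Htra4, Tmem196, Sema3a and Prg4. F13a1 was at 1957 CPM in control members and 25.4 CPM in other control cells, and at 1351 and 34.0 CPM in mutant. Tspan15, a tetraspanin that steers the membrane protease ADAM10, was at 453 against 9.92 CPM in control and 446 against 12.1 CPM in mutant. Fgl2, a fibrinogen-like secreted protein, was at 1718 against 20.6 CPM and 896 against 43.0 CPM. Calcrl, the receptor for calcitonin gene-related peptide and adrenomedullin, was at 245 against 6.24 CPM and 258 against 7.49 CPM. Pla1a, a phosphatidylserine phospholipase, was at 301 against 7.08 CPM and 448 against 13.7 CPM. Rab37, a secretory Rab GTPase, was at 72.5 against 0.327 CPM and 69.2 against 1.73 CPM. The same 12 genes came out when the other cells were limited to those without a globin value.

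**Figure D3:**
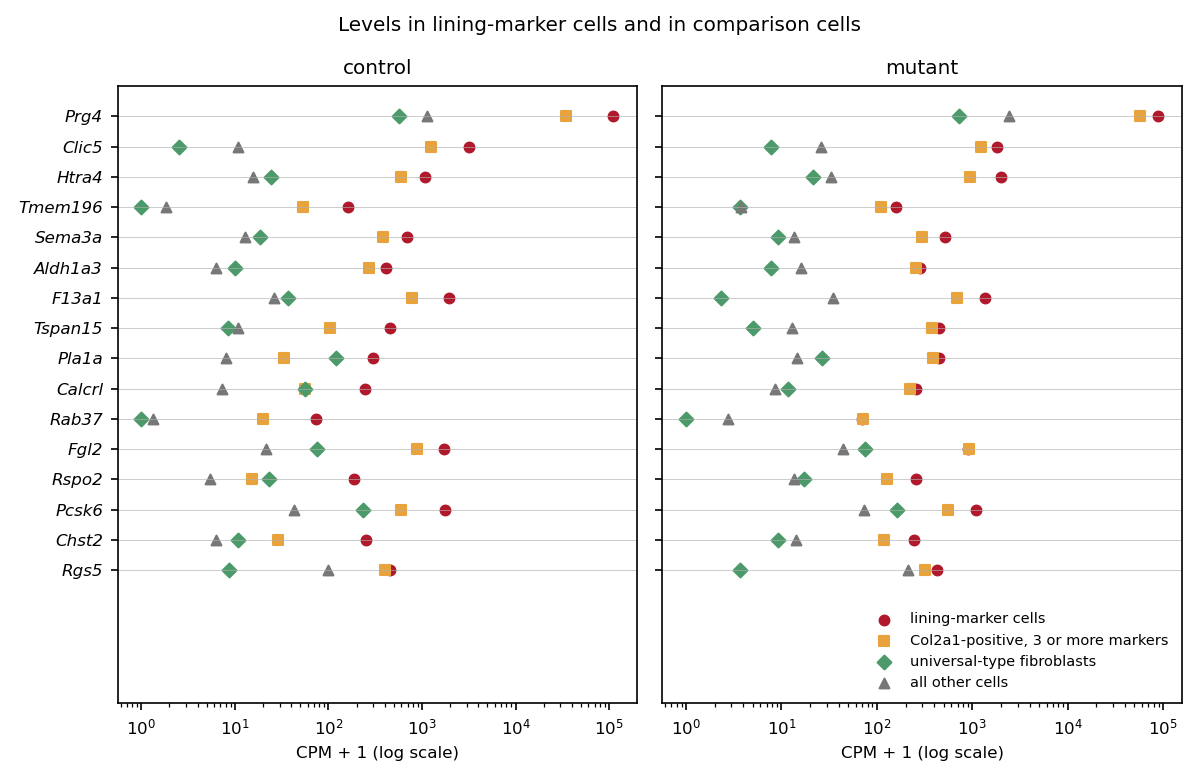
CPM + 1 (log axis) of 16 genes in lining-marker cells (red circles), cells with Col2a1 and at least 3 markers (orange squares), universal-type fibroblasts (green diamonds) and all other cells (gray triangles) of the control and mutant libraries. The red circle lies to the right of the green diamond for every gene shown in both libraries, and Rgs5 stands at 458 and 430 CPM in lining-marker cells against 7.58 and 2.66 CPM in universal-type fibroblasts. The genes shown are rule genes, genes ranked high in these data and genes picked for their values, so this order was largely set by their choice.

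Markers of the lining that the rule did not use were checked as a list of 10. Of these, 9 had a mean of at least 50 CPM over the libraries, and 7 of the 9 were at least 2-fold above all other cells in both libraries, against 11.6% of all 2982 genes at that level. None of the 9 was at least 2-fold lower in both, against 1.74% of all genes. Against universal-type fibroblasts, defined further on, 5 of the 9 were at least 2-fold higher in both libraries and 1 was at least 2-fold lower. Over all genes tested these shares were 4.23% and 3.12%. Cd55, a complement regulator known from the lining, was at 528 CPM in control and 638 CPM in mutant members, against 45.3 and 35.6 CPM elsewhere. It was not at least 2-fold above universal-type fibroblasts in both libraries. Hbegf, an epidermal growth factor receptor ligand, was at 4464 and 3620 CPM, against 383 and 945 CPM. Itga6, a laminin receptor chain, was at 447 and 302 CPM, against 11.95 and 22.5 CPM. Col22a1, a collagen of tissue junctions, was at 805 and 484 CPM, against 19.9 and 42.7 CPM. Pdpn was not called, at 55.5 and 51.8 CPM against 23.4 and 54.5 CPM, and Vcam1, an adhesion molecule often used for lining cells, was lower still, at 13.9 and 26.6 CPM against 27.9 and 107 CPM. Cd9, at 218 and 1272 CPM, was the 1 gene of the list with a ratio past 1. Of the 9 markers at this level 7 were thus higher than in all other cells, not Pdpn or Cd9, and Vcam1, left out by its level, was lower. The list was chosen with earlier results of these data known, and Tspan15 and Rab37 also ranked among the highest genes above. These counts are therefore no independent test of the label of lining fibroblasts.

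Markers of other cell types were checked as lists. Of 13 macrophage and leukocyte markers, 9 were at 0 in control members and 11 in mutant members, Ptprc, Adgre1, Tyrobp, C1qa, C1qb, Trem2 and Vsig4 among them, and the list summed to 7.67 and 3.81 CPM. Of 6 endothelial markers, Cdh5, Emcn and Kdr were at 0 in both libraries, and the list summed to 11.3 and 3.67 CPM. Among mural cell markers, Kcnj8 and Myh11 were at 0 in both and Acta2 was at 3.93 and 5.58 CPM, whereas Rgs5, a regulator of G protein signaling best known from pericytes, was at 458 and 430 CPM. After reduction to equal depth Rgs5 was above 0 in 39.9% of control members (33.4 to 46.7) and 42.6% of mutant members (28.3 to 57.8), against 1.46% and 5.38% of the remaining cells. The 5 erythroid genes summed to 606 CPM in control members and 0 in mutant ones, against 5383 and 306 CPM in other cells. The osteoblast list summed to 3817 and 1747 CPM, nearly all of it Col1a1 in control, and Alpl, an osteoblast phosphatase, was at 0 in control and 117 CPM in mutant, with 98.5% of its UMIs in 3 cells. The part of such RNA in the results was not tested.

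Lining-marker cells were compared with the 187 control and 89 mutant universal-type fibroblasts, which had Col2a1 at 0 and at least 3 of Pi16, Dpp4, Ly6c1, Sema3c, Clec3b and Cd248 above 0. Pi16, a peptidase inhibitor, was at 1.47 CPM in control members and 0 in mutant ones, against 417 and 281 CPM, and Dpp4 was at 5.004 and 15.4 CPM against 186 and 81.4 CPM. These genes helped to choose the comparison cells. Thy1, a surface marker of sublining fibroblasts that chose neither, was at 12.8 and 25 CPM in members and 316 and 240 CPM in universal-type fibroblasts. Sema3c and Cd248 were present in both kinds of cell, at 696 and 684 CPM and at 452 and 281 CPM in members.

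Genes of the extracellular matrix differed between lining-marker cells and universal-type fibroblasts. Of 11 fibrillar and microfibrillar collagen genes, 8 were at least 2-fold lower than in universal-type fibroblasts in both libraries, against 3.12% of all genes at 50 CPM, and Col22a1 was the 1 gene at least 2-fold higher, against 4.23%. Col3a1 was at 3074 CPM in control and 1989 CPM in mutant members, against 23512 and 14113 CPM. Fn1, which encodes fibronectin, was higher, at 15322 and 13356 CPM against 3995 and 3006 CPM. Fn1 belongs to a list of 8 fibroblast markers, of which 7 reached 50 CPM. Against universal-type fibroblasts Fn1 was the 1 gene of the 7 at least 2-fold higher in both libraries, and 4 were at least 2-fold lower. Against all other cells 1 of the 7 was higher and 2 were lower, beside 11.6% and 1.74% of all genes tested. C3, the central complement component, was at 1.68 and 5.73 CPM, against 724 and 1014 CPM.

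Genes of joint lubrication were measured as a list of 14, of which 8 had a mean of at least 50 CPM. Leaving aside Prg4, which chose the cells, 4 of the other 7, namely Has1, Ugp2, Cd44 and Itih5, were at least 2-fold above other cells in both libraries, against 11.6% of all genes tested. Against universal-type fibroblasts 2 of the 8, Prg4 among them, were at least 2-fold higher in both libraries and 1 was at least 2-fold lower. Over all genes tested these shares were 4.23% and 3.12%. Among hyaluronan synthases, Has1 was at 146 CPM in control and 221 CPM in mutant members, while Has2 was at 1.90 and 9.52 CPM and Has3 at 1.33 CPM and 0. Ugdh, which makes the glucuronic acid precursor of hyaluronan, was at 710 and 512 CPM. Itih5, of the family of inter-alpha-trypsin inhibitors that bind hyaluronan, was at 1019 and 927 CPM, and Cd44, the hyaluronan receptor, at 391 and 428 CPM. Has1 was thus the 1 synthase above 10 CPM in both libraries. Ugp2, which makes UDP-glucose upstream of Ugdh, stood at 310 CPM in control and 928 CPM in mutant (log2 ratio 1.58) and Tnfaip6, which modifies hyaluronan, at 37.4 and 91.8 CPM (1.27), the 2 genes of the list past a ratio of 1.

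Of 21 protease and inhibitor genes 16 reached 50 CPM, and Adamts5, Ctsb, Ctsk and Ctsl, beside the rule gene Htra4, were at least 2-fold above other cells in both libraries, against 11.6% of all genes tested. Against universal-type fibroblasts 2 of the 16, Htra4 among them, were at least 2-fold higher in both libraries and 4 were at least 2-fold lower. Over all genes tested these shares were 4.23% and 3.12%. Pcsk6, a proprotein convertase named after its values were seen, was at 1779 CPM in control and 1098 CPM in mutant members, against 42.3 and 72.0 CPM in other cells. Timp2, an inhibitor of matrix metalloproteinases, was at 1278 and 1256 CPM and the aggrecanase Adamts5 at 276 and 275 CPM. The collagenases and stromelysin linked to joint damage were near background, Mmp3 at 14.9 and 3.84 CPM and Mmp13 at 0.935 and 7.07 CPM, with Mmp9 at 0 in both. Ctsk and Ctsl, lysosomal cathepsins, were called higher in mutant, at 218 and 455 CPM (log2 ratio 1.06) and at 428 and 876 CPM (1.03).

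Rspo2, an enhancer of Wnt signaling, was at 185 CPM in control and 256 CPM in mutant members against 4.43 and 12.7 CPM in other cells. Of the semaphorin list, Sema3c, Sema3d and Sema3e, the 3 genes at 50 CPM or more beside the rule gene Sema3a, were at least 2-fold above other cells in both libraries, against 11.6% of all genes tested. Against universal-type fibroblasts 2 of the 4, Sema3a among them, were at least 2-fold higher in both libraries, against 4.23%, and 0 were at least 2-fold lower, against 3.12%. Csf1, the growth factor of macrophages, was at 164 and 154 CPM against 36.7 and 98.5 CPM. Il6, Lif and Ccl2 were at or under 7.64 CPM in members of both libraries.

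Of 22 transcription factors of joint tissue, 10 reached 50 CPM, and Creb5, Osr2 and Sox5 were the 3 at least 2-fold above other cells in both libraries, against 11.6% of all genes tested. Creb5, a factor known to drive Prg4 in joint tissue, was at 782 CPM in control and 555 CPM in mutant members, against 54.0 and 105 CPM. Sox5, known from chondrocytes, was at 646 and 472 CPM, against 91.9 and 99.1 CPM in other cells and 291 and 176 CPM in cells with Sox9 and Col2a1. Sox9 itself was at 34.9 and 43.8 CPM. Foxo1, a factor of stress resistance, was at 508 CPM in control and 216 CPM in mutant members (log2 ratio -1.23) and was 2-fold above other cells in control alone, a difference between libraries that was not tested.

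The question of the genotypes is whether lining-marker cells, which have almost no Acan RNA, differed between the libraries. Across the 2982 genes with a mean of at least 50 CPM, 160 had a log2 ratio of mutant over control of at least 1 (5.37%) and 108 of -1 or less (3.62%), with a median of -0.004 and quartiles of -0.37 and 0.39. Ratios are of CPM + 1. Such a fold is a rule of size between 2 libraries and the mutant values rest on 53 cells. With only cells lacking a globin value, 132 of the 160 and 87 of the 108 kept a ratio past 1 in the same direction. Without the 3 cells with most UMIs of each gene in each library, 97 were higher and 204 lower. This removal takes a larger part of the 53 mutant cells than of the control cells, which tends to lower ratios, here and below. For Prg4 these cells held 6.26% of control and 25.2% of mutant UMIs, and its log2 ratio went from -0.33 to -0.55. That of Dbp went from 3.67 to 3.72. The counts without these cells thus cannot show whether the balance was stable. At equal depth, with fewer UMIs per gene, 310 were higher and 285 lower, both more than at full depth.

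**Figure D4:**
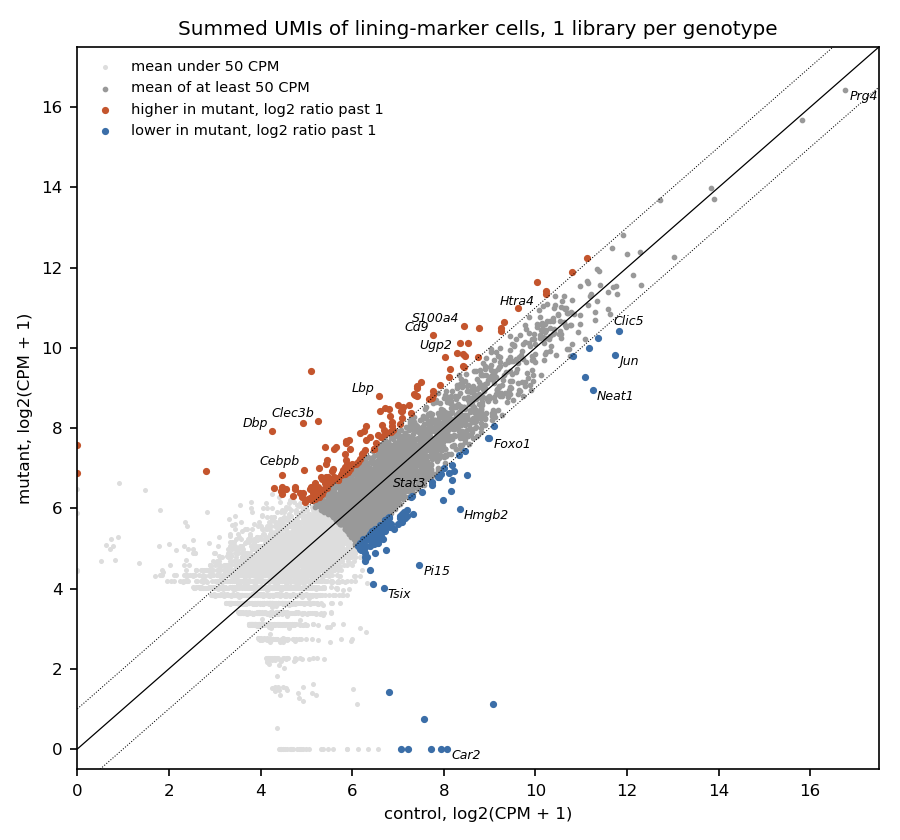
Each gene's log2(CPM + 1) in control (horizontal axis) and mutant (vertical axis) lining-marker cells, summed over 223 and 53 cells; dotted lines mark log2 ratios of 1 and -1, and colored points are the 160 higher and 108 lower genes with a mean of at least 50 CPM. Most points lie between the dotted lines, Stat3 on the diagonal among them.

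Stat3, the floxed gene, stood at nearly the same level in both libraries. It was at 111 CPM in control, with values above 0 in 88 of 223 cells, and at 109 CPM in mutant, with values above 0 in 28 of 53 cells (log2 ratio -0.03). Reads near the 3′ end of the transcript need not cover the deleted exons, so this level checks neither the presence nor the absence of the deletion. In cells with Sox9 and Col2a1, Stat3 was at 143 CPM in control and 104 CPM in mutant.

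The receptors through which Stat3 is activated were present. Il6st was at 169 CPM in control and 105 CPM in mutant members (log2 ratio -0.68), Lifr, the leukemia inhibitory factor receptor, at 106 and 111 CPM (0.06) and Osmr, the oncostatin M receptor, at 42.1 and 38.4 CPM (-0.13). Jak1, the kinase of these receptors, was at 241 and 218 CPM, and the interleukin-11 receptor Il11ra1 at 47.0 and 88.3 CPM (0.90). Of the 26 genes of the JAK-STAT and gp130 list, 7 reached 50 CPM, with a median log2 ratio of -0.03 against -0.004 over all genes. Socs3, the feedback inhibitor of this pathway, was the 1 of these 7 past the limit, which 5.37% of all genes passed in this direction, at 21.3 CPM in control and 80.4 CPM in mutant (1.87). Socs3 was above 0 in 25 control and 19 mutant cells, and without the 3 cells with most Socs3 in each library the log2 ratio was 1.41.

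Of 20 known STAT3 targets, 10 reached 50 CPM, 3 were higher by the rule of size, none was lower, and the median log2 ratio was 0.19. Over all genes tested, 5.37% were higher and 3.62% lower, with a median of -0.004. Besides Socs3 the higher ones were Cebpb, a transcription factor of the acute response, at 29.9 and 124 CPM (2.02), and Lbp, the lipopolysaccharide binding protein, at 94.8 and 442 CPM (2.21, and 1.32 at equal depth). Both ratios were also above 1 in the rest of each library. Cebpb stood at 19.7 and 234 CPM in all other cells and Lbp at 36.3 and 125 CPM. Mcl1, Timp1, Hif1a and Junb had log2 ratios of 0.09, 0.40, -0.24 and 0.29, and Fgl2 stood lower in mutant, at -0.94.

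The immediate early and heat shock list, genes that tissue dissociation is known to induce, had mostly negative ratios. Of its 21 genes 18 reached 50 CPM, 4 were lower in mutant, 1 was higher and the median log2 ratio was -0.62, beside 3.62% lower and 5.37% higher over all genes tested. Jun was at 3417 CPM in control and 905 CPM in mutant members (-1.92), Fosb at 2173 and 623 CPM (-1.80), Dnajb1 at 276 and 116 CPM (-1.24) and Egr1 at 2292 and 1028 CPM (-1.16). Ier3 was at 60.5 and 209 CPM (1.77). In all other cells Jun was at 1339 CPM in control and 1519 CPM in mutant, and Egr1 at 728 and 1455 CPM. The cause was not tested, and handling of the tissue cannot be told apart from genotype here.

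Collagen genes also had mostly negative ratios. All 11 fibrillar and microfibrillar genes reached 50 CPM, 2 were lower by the rule, none was higher, and the median log2 ratio was -0.71, where all genes tested had 3.62% lower, 5.37% higher and a median of -0.004. Col1a1 was at 3617 CPM in control and 1366 CPM in mutant (-1.40) and Col1a2 at 2634 and 1205 CPM (-1.13), both concentrated in few cells, with 37.3% and 44.2% of Col1a1 UMIs in 3 cells of control and mutant. Among members with Prg4 at 1% of UMIs or more, Col1a1 was at 2255 and 903 CPM and the median of the 9 genes still at 50 CPM was -0.84. The 11 genes summed to 12360 CPM in control and 6744 CPM in mutant members. In universal-type fibroblasts they summed to 61422 and 35543 CPM, and in Col2a1-positive cells with at least 3 markers to 28805 and 7720 CPM. In all other cells the sums were 19716 CPM in control and 29444 CPM in mutant. Of the 8 basement membrane genes at 50 CPM none passed the limit, with Col4a1 at 842 and 445 CPM (-0.92).

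**Figure D5:**
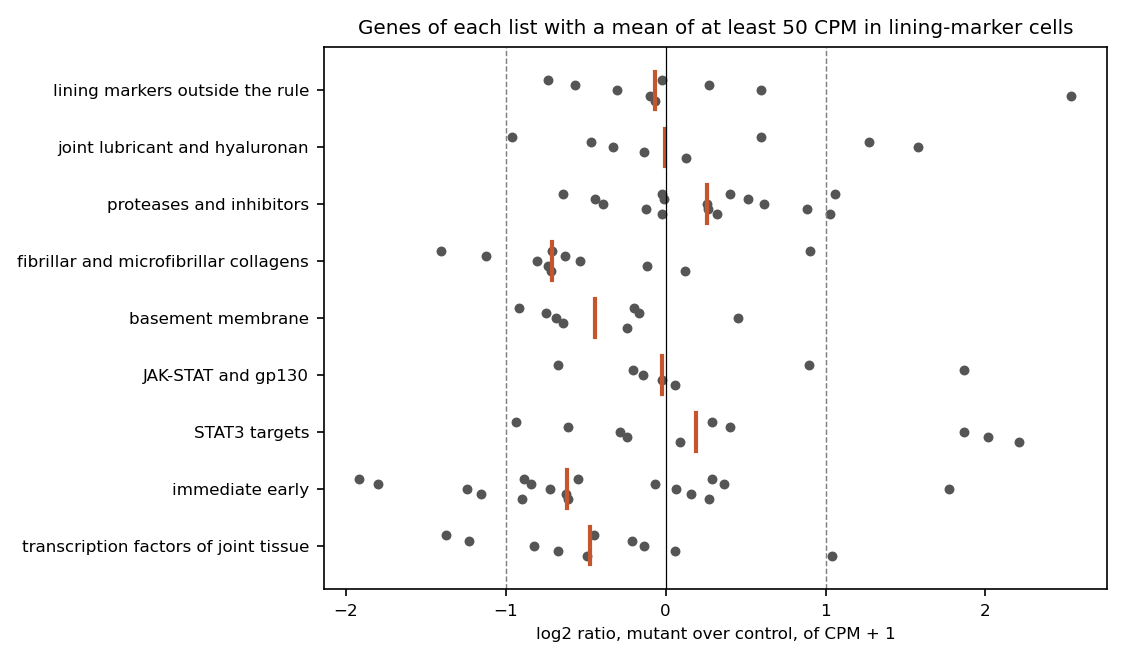
Log2 ratio of mutant over control for the genes of 9 lists with a mean of at least 50 CPM in lining-marker cells; points are genes, orange bars list medians, and dashed lines mark 1 and -1. The immediate early list (median -0.62) and the fibrillar collagens (-0.71) lie mostly left of 0, and the JAK-STAT list (-0.03) centers on it.

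Red cell and proliferation genes were detected in control members. Car2, a carbonic anhydrase of red cells and osteoclasts, was at 268 CPM in control and 0 in mutant, at least 46.4-fold higher in control against a floor of 3 UMIs over the mutant cells. In control members without globin it was at 65.8 CPM. Hbb-bs and Hba-a1, globin chains, were at 244 and 134 CPM in control and 0 in mutant, at least 42.3-fold and 23.2-fold higher. Mki67, a marker of cycling cells, was at 210 CPM in control and 0 in mutant, and the 14 cell cycle genes summed to 587 and 91.8 CPM, against 206 and 91.8 CPM when cells with globin were left out. In all other cells they summed to 4146 CPM in control and 363 CPM in mutant. Any of these genes other than Pcna was above 0 in 125 of 223 control members and in 51 of the 97 without globin. In mutant this held for 12 of 53 members. A value above 0 can be a fraction of a UMI, and the same count was not made for other cells. Hmgb2, a chromatin protein of dividing cells, was at 326 and 62.4 CPM (-2.37), and its ratio without globin-positive cells was -0.62.

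Ratios were ranked among genes above 0 in at least 20% of members of either library. The remaining genes with the lowest ratios in that ranking included Pi15, Tsix, Peg3, Neat1 and Srgap3. Pi15, a peptidase inhibitor, was at 175 CPM in control and 23.0 CPM in mutant (-2.88). Its ratio was -4.30 without the 3 highest cells of each library. Tsix was at 102 and 15.2 CPM (-2.67). As the antisense partner of Xist, Tsix is an uncertain count where the strand setting is not given. The imprinted gene Peg3 was at 86.9 and 16.4 CPM (-2.34). The nuclear long noncoding RNA Neat1 was at 2431 and 495 CPM (-2.29), and Srgap3, a Rac regulator, at 82.4 and 21.08 CPM (-1.92). The ratio of Neat1 without globin-positive cells was -2.41. For Srgap3 the 3 highest cells held 81.9% of the mutant UMIs, and without them and their control counterparts the ratio was -3.87.

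Among genes at a mean of at least 50 CPM and above 0 in at least 20% of members of either library, Dbp had the highest ratio. Dbp, a transcription factor under control of the circadian clock, was at 18.1 CPM in control and 242 CPM in mutant members (3.67). Called genes outside this ranking had higher ratios, Cfd (7.58), Alpl (6.88) and Cxcl2 (4.13) among them. In all other cells Dbp was at 12.2 and 105 CPM. CAAA01147332.1, an unnamed locus, followed at 29.6 and 277 CPM (3.18). Cd9, a tetraspanin, was at 218 and 1272 CPM (2.54), and at 119 and 885 CPM in all other cells. S100a4 was at 345 and 1492 CPM (2.11), and at 133 and 502 CPM in all other cells. Sod2, the mitochondrial superoxide dismutase, was at 20.9 and 86.1 CPM (1.99), and Cxcl1, a neutrophil chemokine, at 22.5 and 88.1 CPM (1.93, and 1.07 at equal depth). Clec3b, which encodes tetranectin and is abundant in universal-type fibroblasts, was at 37.1 and 286 CPM (2.91), with 72.5% of the mutant UMIs in 3 cells and a ratio of 1.79 without the 3 highest cells of each library. Slurp1, a secreted Ly6-family protein, was at 41.2 and 183 CPM (2.12), with 76.9% of the mutant UMIs in 3 cells and a ratio of 1.13 without such cells. How far a difference between all cells of the libraries contributes to these ratios was not tested.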

How the data were processed

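Gene expression was measured by droplet single-cell RNA-seq (3′ chemistry) in 2 libraries. Per the study's methods and the submitters' processing notes, the authors aligned reads with STAR 2.7.3a to mouse build mm10, removed duplicate UMIs, called cells, subtracted free RNA and normalized. The deposited gene columns are log2 values of CPM + 1 per cell, and the deposited total of each cell is an estimated count, so each gene's UMIs were recovered from its CPM and that total; 74.9% of control and 97.3% of mutant values above 0 came within 0.1 of a whole number. The deposited percent columns gave mitochondrial and ribosomal reads. A further score deposited per cell is the authors' number of genes above 0. The authors' cell labels were not used.

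UMIs were summed over the member cells of each library and scaled to CPM, and ratios were taken of CPM + 1, in Python 3.11.15 with numpy 2.4.6 and scipy 1.17.1. With 1 library per genotype no test was made, and cells were not used as replicates. A gene was called at a mean of at least 50 CPM and a log2 ratio of at least 1 in size. The genes named were the rule genes; Stat3, Il6st, Lifr, Osmr and Socs3; members of the lists described; the 12 genes with the highest ratio over other cells among those above 0 in at least 30% of members of each library; and the 10 highest and 10 lowest ratios of mutant over control among those above 0 in at least 20% of members of either library. Pcsk6, Chst2 (in a figure only), the clock and H2 genes and B2m were added after their values were seen. 1 gene that met the rule is not reported here. The members and the lists were chosen with earlier results of these data known. Scrublet, run in scanpy 1.11.5, marked 74 control and 2 mutant cells as doublets, 7 control members and 0 mutant members among them, and marked cells stayed in. Intervals are exact (Clopper-Pearson) and cover counting error only. The calculation was tested on simulated data. Other settings, such as the marker number, the pseudocount and the depth, were tried and are given at the end.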

Additional observations from a re-analysis of the deposited data

How the results depend on the processing

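The share of control cells was 7.14% with at least 2 markers and 8.15% among cells without globin, and that of mutant cells was 6.27% with at least 2 markers, 5.54% among cells of at most 5% mitochondrial reads and 5.21% at equal depth. The counts of genes higher and lower in mutant members were 310 and 285 at equal depth, 588 and 635 at a mean of at least 10 CPM, and 97 and 204 without the 3 cells with most UMIs of each gene. The cell cycle median, -3.81 over 2 genes, was -3.11 with at least 2 markers, -5.47 and -2.19 with pseudocounts of 0.1 and 10 CPM and -4.66 over 11 genes at 10 CPM. It turned to 0.62 without globin-positive cells and to 0.27 without doublets, where Pcna was the 1 gene left at 50 CPM. Leaving out members with Prg4 under 1% of UMIs, an alternative chosen after seeing the data, gave shares of 4.14% and 3.43% and counts of 158 and 115. No paired analysis was possible because each genotype had 1 library. The floor of 3 UMIs equals 5.77 CPM over the 53 mutant cells and 2.59 CPM over the 223 control cells.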

Other observations

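Genes of the circadian clock were looked up after Dbp was seen to have the highest ratio of the genes ranked. They are thus values chosen in view of the data and no fixed list. Per2, Nr1d2, Hlf, Ciart, Npas2, Clock, Cry1 and Cry2 were also looked up and are not given here. Bhlhe41, another of them, was at 28.2 CPM in control and 28.7 CPM in mutant members (log2 ratio 0.02). Of those given here only Dbp and Nr1d1 had a mean of at least 50 CPM, the level a call needs. Nr1d1, a clock repressor, was at 93.8 CPM in control and 225 CPM in mutant members (log2 ratio 1.25), and at 67.1 and 161 CPM in all other cells. Tef, a factor related to Dbp, was at 20.6 and 70.9 CPM (1.73), and Per3 at 10.00 and 26.8 CPM (1.34). Arntl, which encodes the activator BMAL1, was at 21.9 and 11.5 CPM (-0.88), and Per1 at 31.7 and 9.51 CPM (-1.64). Dbp, Nr1d1, Tef and Per3 were also higher in mutant among all other cells, whereas Per1 was there at 20.8 CPM in control and 34.7 CPM in mutant.

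The class I histocompatibility genes H2-D1 and H2-K1, also chosen after their values were seen, were at 259 and 138 CPM in control members and at 877 and 365 CPM in mutant members (log2 ratios 1.76 and 1.40). In all other cells they were at 174 and 112 CPM in control and at 421 and 289 CPM in mutant. B2m, looked up with them, was at 415 CPM in control members and 681 CPM in mutant members (log2 ratio 0.71).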
